A study of Mus musculus with 12 samples.

Results

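The 10 genes described here encode transcription factors of limb and body wall mesenchyme: the basic helix-loop-helix (bHLH) factors *Hand1*, *Hand2*, *Twist1* and *Twist2*, the homeodomain factors *Prrx1*, *Prrx2* and *Pitx1*, and the T-box factors *Tbx4*, *Tbx5* and *Tbx15*. They were taken by name from a table of 24453 genes, and the list was drawn up because *Hand2* had been seen to be abundant in 1 fibroblast line and absent from 3 others. The counts that chose the list are therefore only described against that line, and calls of the list given against it are not read as a test. The 12 libraries come from 4 lines of MEFs (mouse embryonic fibroblasts) of strain C57BL6/J with the genotype Pnpt1 neo-flox/neo-flox, with 3 biological replicates for each line. TM6 is the parental line, immortalized with SV40 large T antigen, and carries loxP sites in both alleles of *Pnpt1*, which encodes the RNA-degrading enzyme PNPase. The rho0 line was made from TM6 by 3 weeks of growth with ditercalinium at 750 ng/mL, which removes mitochondrial DNA, and PKO-1 and PKO-6 were made from TM6 with an adenovirus that carries Cre recombinase and deletes part of *Pnpt1*. The authors report that the PKO clones lost their mitochondrial DNA too, so that TM6 alone retains it. A difference of TM6 from the derived lines cannot be told apart from this loss. All 4 lines grew with uridine at 50 μg/mL, and no line was free of the T antigen or of the floxed background.

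Each derived line grew from a single-cell colony, so that the clone and the treatment cannot be told apart, and the replicates are cultures of 1 clone. Fewer cells that express a gene and less RNA per cell cannot be told apart in these bulk libraries either. The totals were 47164860 to 67991378 estimated counts per library. *Pnpt1* averaged 3131 ± 262 normalized counts in TM6 (SD, n = 3 in each line here and throughout), 5271 ± 230 in rho0, 1240 ± 44.3 in PKO-1 and 1944 ± 250 in PKO-6, and exons outside the deleted part still give counts. Of 11 fibroblast markers, 9 reached 10 normalized counts in every TM6 and PKO-1 library, 8 in PKO-6 and 7 in rho0. *Col1a1*, *Col1a2* and *Vim* were abundant in all lines, whereas *Thy1* averaged at most 2.82 normalized counts in any line. *Myog* and *Myf5* of skeletal muscle and *Adgre1* of macrophages were at 0 in all 12 libraries. Other markers outside the fibroblast list were read. The muscle marker *Des* averaged 50.02 normalized counts in PKO-1, 43.48 in PKO-6, 12.82 in rho0 and 9.816 in TM6. The haematopoietic marker *Cd68* averaged from 91.56 in TM6 to 185.7 in PKO-6. Of the epithelial markers, *Krt18* averaged 816.4 in PKO-1, 430.1 in rho0, 241.8 in TM6 and 8.001 in PKO-6. *Epcam* averaged 88.02 in PKO-6 and at most 8.152 in the other lines.

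Limb buds grow out of lateral plate mesoderm. TBX5 starts the forelimb bud, TBX4 and PITX1 act in the hindlimb bud, and HAND2 marks the posterior mesenchyme, where it promotes expression of *Shh*, which patterns the digits. PRRX1 and PRRX2 are broad mesenchymal homeodomain factors needed for skeletal growth, TBX15 acts in limb and dermal mesenchyme, and TWIST1 and TWIST2 keep mesenchyme undifferentiated and pair with other bHLH proteins on E-boxes, short DNA motifs with the letters CANNTG. Normalized counts below are estimated counts divided by the TMM-scaled library size and multiplied by the mean of these sizes.

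The stretches just before the start sites of 4 of these genes are shown first, for 2 genes that had no counts outside TM6 and 2 that were read in every line. They are the 250 bases before a start site in RefSeq (GRCm38.p6), 5′ to 3′ on the strand of the gene, with each E-box in capitals.
Hand2, chr8:57320733-57320982, plus strand: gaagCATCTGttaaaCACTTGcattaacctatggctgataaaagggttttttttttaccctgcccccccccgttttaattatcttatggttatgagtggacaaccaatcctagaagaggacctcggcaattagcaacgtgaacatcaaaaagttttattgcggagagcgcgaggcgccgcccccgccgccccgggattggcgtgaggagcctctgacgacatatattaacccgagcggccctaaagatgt
Tbx4, chr11:85896515-85896764, plus strand: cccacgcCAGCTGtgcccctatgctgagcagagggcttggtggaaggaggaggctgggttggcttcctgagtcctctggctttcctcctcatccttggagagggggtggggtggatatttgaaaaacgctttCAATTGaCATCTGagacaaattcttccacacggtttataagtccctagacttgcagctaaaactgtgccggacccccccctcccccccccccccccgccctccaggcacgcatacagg
Twist1, chr12:33957421-33957670, plus strand: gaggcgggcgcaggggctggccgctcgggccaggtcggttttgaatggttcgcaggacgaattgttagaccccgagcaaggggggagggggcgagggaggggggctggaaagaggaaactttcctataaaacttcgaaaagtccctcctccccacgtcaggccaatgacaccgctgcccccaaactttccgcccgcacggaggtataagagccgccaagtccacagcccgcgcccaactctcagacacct
Twist2, chr1:91801211-91801460, plus strand: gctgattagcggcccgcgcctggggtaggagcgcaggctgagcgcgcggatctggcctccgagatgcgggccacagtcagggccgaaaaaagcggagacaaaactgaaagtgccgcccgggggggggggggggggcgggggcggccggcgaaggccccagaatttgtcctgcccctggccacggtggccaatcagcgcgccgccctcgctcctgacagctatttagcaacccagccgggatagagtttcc
RefSeq windows were at hand for 6 of the 10 genes, and *Hand1*, *Tbx5*, *Tbx15* and *Pitx1* had none. The *Tbx4* window precedes the shorter of 2 listed transcripts and lies inside the gene, since the longer one starts at base 85890063. The windows of *Prrx1* and *Prrx2* also lie within the bounds that RefSeq gives these genes, and are described by their letter counts only. CANNTG reads the same on both strands and 66.2% of 32536 windows of the same length held at least 1. The *Hand2* window held 2 and the *Tbx4* window 3, and those of *Twist1*, *Twist2*, *Prrx1* and *Prrx2* held 0. The *Hand2* window had 15 CpG dinucleotides against a median of 6, with a GC content of 49.2% against a median of 52.4%. The *Twist1*, *Twist2* and *Prrx2* windows had 18, 23 and 21 CpG and 62.4%, 68.8% and 70.0% GC, while *Tbx4* and *Prrx1* had 6 and 4 CpG. TATAAA, searched on both strands, occurred in the *Tbx4* and *Twist1* windows and in 12.3% of all windows. These letter counts describe the windows and say nothing of binding.

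*Hand2* (chr8:57320983-57324517 of mm10, plus strand, 2 exons) had 1526, 1534 and 1407 normalized counts in the TM6 libraries, a mean of 1489 ± 71.3. All 9 libraries of rho0, PKO-1 and PKO-6 had 0 counts. The TM6 libraries held 4782 *Hand2* counts together, so that the level was at least 1410-fold lower in rho0, 1370-fold lower in PKO-1 and 1600-fold lower in PKO-6, when 3 counts over the 3 libraries of a line are taken as the floor. These bounds cover counting error only. Per length, *Hand2* stood at 20.9 to 22.6 TPM in the TM6 libraries, where TPM is the deposited level corrected for transcript length and depth.

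*Pitx1* (chr13:55825054-55831425, minus strand) followed the same order. Its TM6 libraries had 514.5, 489.1 and 475.6 normalized counts, and the derived lines had 2 counts in rho0, 2 in PKO-1 and 0 in PKO-6 over 3 libraries each. The TM6 level was 699-fold that of rho0 (95% counting interval 193 to 5780), 678-fold that of PKO-1 (187 to 5610) and at least 530-fold that of PKO-6. *Tbx4*, the other hindlimb factor, was scarce in TM6, with 12, 26 and 21 counts (0.197 ± 0.0777 TPM), and had 0 counts in all 9 derived libraries. This makes it at least 17.4-fold lower in rho0, 16.8-fold lower in PKO-1 and 19.7-fold lower in PKO-6. *Hand1*, which acts beside *Hand2* in heart and limb, had a single count, in PKO-1 replicate 3, and was not detectable in the other 11 libraries. *Hand1* and *Tbx4* did not pass the filter on low counts. *Hand2* and *Pitx1* passed it only through TM6.

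**Figure D1:**
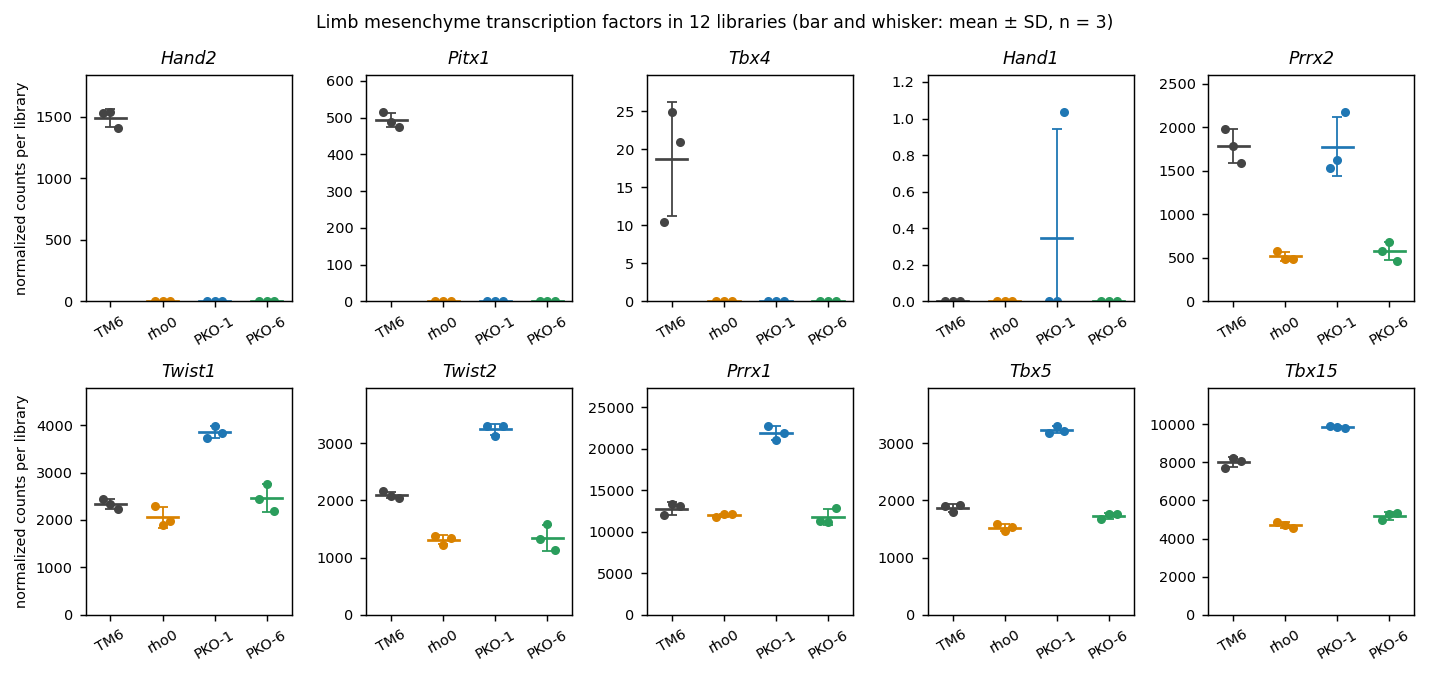
Normalized counts (vertical axis, linear from 0) of the 10 genes in each library of TM6, rho0, PKO-1 and PKO-6, with the mean and SD of 3 libraries. Hand2, Pitx1 and Tbx4 lie at or near 0 in the 9 derived libraries, Hand1 has a single count in all, and the other 6 genes were read in every library.

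The neighbours of *Hand2* and *Pitx1* were then read in the same way. *Hand2* shares its start region with Hand2os1, a long noncoding RNA transcribed from the other strand, whose first base lies 124 bases before the *Hand2* start. It is listed in the table by its gene number, as LOC102636514 (chr8:57304414-57320859, minus strand). LOC102636514 had 75, 59 and 64 counts in TM6 (61.7 ± 4.63 normalized counts) and 0 in all 9 derived libraries, at least 56.5-fold lower in PKO-1, 58.3-fold in rho0 and 66.2-fold in PKO-6. The gene on the other side, 5033428I22Rik, lies 11.5 kb beyond the *Hand2* start and had 47, 35 and 29 counts in TM6 and 0 in the derived lines, at least 31.7-fold lower in PKO-1. Hence *Hand2* and the nearest listed gene on each side were all without counts in the derived lines.

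The next well-read gene was not lost. *Fbxo8*, whose lower end lies at -769.8 kb from that of *Hand2*, had 754.9 normalized counts in TM6, 483.1 in rho0, 711.9 in PKO-1 and 427 in PKO-6. *Scrg1*, 134.9 kb above, was near 0 in every line (2.52 in TM6), so it bears on neither side. Around *Pitx1*, *Pcbd2* at -97.7 kb had 205.5, 374.6, 236.8 and 522.9 normalized counts in TM6, rho0, PKO-1 and PKO-6, and *H2afy* at 248.6 kb had 7090, 7854, 4333 and 6494. *Catsper3* and *Tifab*, the remaining neighbours, stayed below 5 normalized counts on average in each line. The median change of all tested genes on chromosome 8 against TM6 was -0.18 (log2) in rho0, -0.11 in PKO-1 and -0.43 in PKO-6, over 739 genes, and on chromosome 13 it was 0.04, -0.27 and 0.08 over 558 genes.

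**Figure D2:**
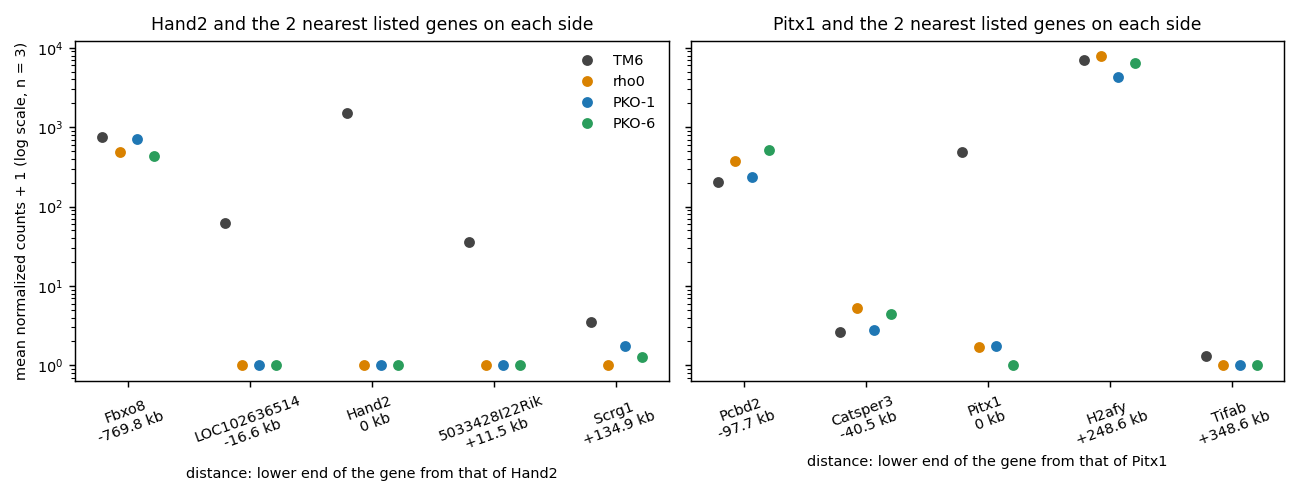
Mean normalized counts plus 1 (vertical axis, log scale, n = 3) of Hand2 and Pitx1 and the 2 nearest listed genes on each side, with the distance of each gene's lower end in kb (horizontal axis). Around Hand2 the points of the 3 derived lines sit at 1, that is at 0 counts, for Hand2 and both nearest genes and rise again at Fbxo8; around Pitx1 both well-read neighbours, Pcbd2 and H2afy, were read in all lines.

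The genes most like *Hand2* across the 12 libraries, by Pearson's r of log2(CPM + 0.5) among 11204 genes whose mean reached 100 normalized counts, were *Mmp2*, *Pitx1*, *Postn*, *Hoxd13* and *Ccl7*. The r values ran from 0.998739 for *Ccl7* to 0.999969 for *Mmp2*, and they reflect 3 libraries of 1 line set against 9 others. *Mmp2*, a gelatinase that cleaves matrix collagens, had 1486 normalized counts in TM6 and 0 counts in all derived libraries. *Hoxd13*, the most 5′ gene of its cluster and a factor of the distal limb, had 1358 in TM6 and likewise 0 elsewhere. *Postn*, an extracellular matrix protein, went from 756.5 in TM6 to 1.81 in rho0, 1.11 in PKO-1 and 1.56 in PKO-6, and the chemokine *Ccl7* from 746.3 to 1.43, 4.83 and 5.77.

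The remaining 6 factors, *Twist1*, *Twist2*, *Prrx1*, *Prrx2*, *Tbx5* and *Tbx15*, were read in all 12 libraries, and their order across the lines was another one. PKO-1 was the highest line for 5 of them, while for *Prrx2* PKO-1 and TM6 overlapped. The values of rho0 and PKO-6 lay close together. Against TM6, of 8 genes tested, 0 were higher and 5 lower in rho0, 4 higher and 2 lower in PKO-1, and 0 higher and 5 lower in PKO-6, at an adjusted p under 0.01 and a log2 fold change beyond 0.5. The shares of all 14026 tested genes that passed were 20.7% higher and 21.4% lower in rho0, 16.4% and 17.9% in PKO-1, and 21.9% and 19.4% in PKO-6. Nothing is read from these member counts, because *Hand2* in these contrasts chose the list.

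The list was drawn up with earlier results of these data known. Comparisons between derived lines are therefore not shown to be independent of that choice. *Hand2* was 0 throughout these comparisons, so it did not choose the list there and could not pass. *Pitx1*, with at most 1 count in any of these libraries, could not pass either, which leaves 6 genes that could. In PKO-1 against PKO-6, 6 rose and 0 fell, beside 11.5% of all tested genes higher and 17.6% lower. In PKO-1 against rho0 again 6 rose and 0 fell, beside 15.1% higher and 17.6% lower. Both comparisons share the PKO-1 libraries. In PKO-6 against rho0, 0 of the 6 passed, beside 13.3% higher and 8.16% lower. All p below for these genes come from edgeR's quasi-likelihood test, adjusted by Benjamini-Hochberg over all tested genes.

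*Twist1* (chr12:33957671-33959831) had 2437, 2334 and 2229 normalized counts in TM6 and 2305, 1893 and 1971 in rho0. The clones had 3737, 3991 and 3843 (PKO-1) and 2434, 2769 and 2195 (PKO-6). The PKO-1 libraries stood above the other 9, which overlapped one another. *Twist1* was higher in PKO-1 than in PKO-6 by 0.65 (log2, SE 0.0848, adjusted p = 1.68e-05) and than in rho0 by 0.91 (SE 0.0856, adjusted p = 6.94e-07). Tested genes of chromosome 12 had medians of 0.55, 0.56 and 0.53 against TM6 in rho0, PKO-1 and PKO-6, while between derived lines these medians were within 0.03 of 0. Against TM6, *Twist1* itself differed by -0.18 in rho0, 0.73 in PKO-1 and 0.08 in PKO-6. Once chromosome medians were subtracted, these values became -0.70, 0.17 and -0.45, so that they depend on this shift.

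*Twist2* (chr1:91801461-91848034), the paralog of *Twist1*, had 3291, 3130 and 3304 normalized counts in PKO-1, and 2155, 2068 and 2047 in TM6. PKO-6 had 1324, 1587 and 1131, and rho0 had 1370, 1221 and 1342. The lines thus fell into 3 steps, with rho0 and PKO-6 overlapping at the bottom. The difference between PKO-1 and PKO-6 was 1.27 (SE 0.0927, adjusted p = 5.32e-08), and that between PKO-1 and rho0 was 1.31 (SE 0.0932, adjusted p = 4.43e-08).

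*Prrx1* (chr1:163245119-163313650, minus strand) had the highest mean per length of the 10 in every line, at 84.5 ± 4.15 TPM in TM6, 78.3 ± 6.69 in rho0, 138 ± 8.50 in PKO-1 and 68.2 to 88.2 in the libraries of PKO-6. Its normalized counts were 22760, 21040 and 21830 in PKO-1, and between 11210 and 13330 in the other 9 libraries, which overlapped. PKO-1 exceeded PKO-6 by 0.89 (SE 0.0643, adjusted p = 4.51e-08) and rho0 by 0.87 (SE 0.0643, adjusted p = 6.47e-08).

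*Prrx2* (chr2:30845367-30881247) differed most between the derived lines. Its TM6 libraries had 1984, 1786 and 1592 normalized counts and those of PKO-1 1537, 1627 and 2170, against 578.9, 679.9 and 469.3 for PKO-6 and 581.2, 486.4 and 488 for rho0. No library of the lower pair of lines reached any library of the upper pair. PKO-1 exceeded PKO-6 by 1.63 (SE 0.148, adjusted p = 4.99e-07) and rho0 by 1.78 (SE 0.151, adjusted p = 2.36e-07).

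*Tbx5* (chr5:119834663-119885218) had 3187, 3307 and 3212 normalized counts in PKO-1, about 1.87 times its level in PKO-6 (1666, 1753 and 1770) and 2.12 times that in rho0 (1585, 1458 and 1530). The log2 differences were 0.90 (SE 0.0494, adjusted p = 2.72e-09) and 1.09 (SE 0.0499, adjusted p = 5.89e-10). TM6 had 1898, 1793 and 1912, just above PKO-6. Its neighbour *Tbx3*, a further T-box gene of the limb, had 3541 normalized counts in PKO-1, 1903 in PKO-6, 1498 in rho0 and 1836 in TM6, the same order for the upper and lower line. *Tbx15* (chr3:99253760-99354260) had 9926, 9833 and 9796 in PKO-1 and 7725, 8234 and 8059 in TM6, but 4955, 5310 and 5335 in PKO-6 and 4875, 4716 and 4561 in rho0. PKO-1 exceeded PKO-6 by 0.92 (SE 0.0486, adjusted p = 1.89e-09) and rho0 by 1.06 (SE 0.0488, adjusted p = 5.89e-10). In PKO-1 against rho0, tested genes of chromosomes 5 and 3 had medians of 0.32 and 0.20. Over the alternatives described below, the lowest differences from rho0 were 0.75 for *Tbx5* and 0.83 for *Tbx15*.

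For PKO-6 against rho0 the 6 differences were small, and they lay between -0.03 for *Prrx1* and 0.26 for *Twist1*. The 95% interval for *Twist1* was 0.08 to 0.45 (adjusted p = 0.0197) and that for *Prrx1* -0.17 to 0.11 (adjusted p = 0.745). *Prrx2* had the widest interval, -0.18 to 0.48. *Tbx5* was higher in PKO-6 by 0.18 (0.07 to 0.29, adjusted p = 0.00757), below the fold threshold, and *Tbx15* by 0.14 (0.04 to 0.25, adjusted p = 0.0258). Their chromosomes had medians of 0.26 (chromosome 5) and 0.25 (chromosome 3) in this comparison, so neither gene exceeded the median of its chromosome. At an unadjusted p under 0.05, 3 passed (*Twist1*, *Tbx5* and *Tbx15*), and DESeq2's Wald test also called 0.

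**Figure D3:**
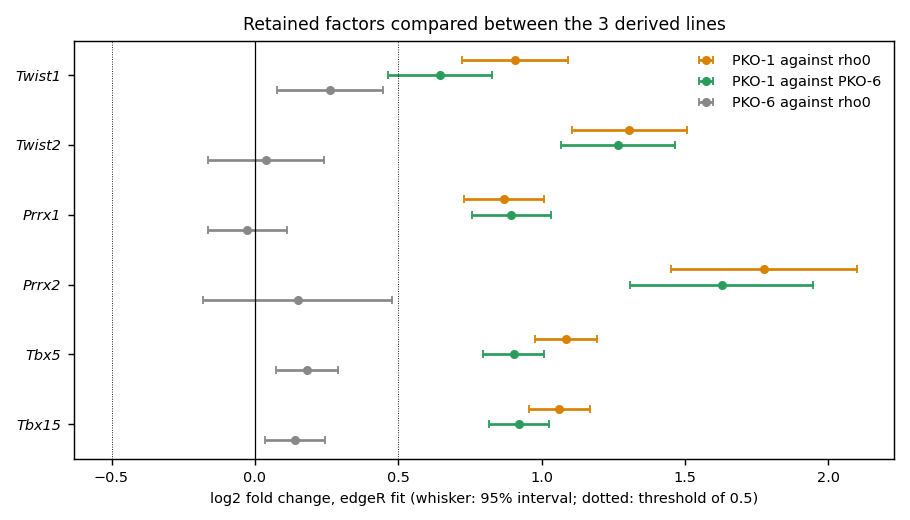
Log2 fold change (horizontal axis, edgeR fit, whiskers are 95% intervals, n = 3 per line) of the 6 retained factors between derived lines. All 6 intervals of PKO-1 against rho0 and against PKO-6 lie above 0, and those of PKO-6 against rho0 lie within 0.5 of 0.

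The summed level of the 11 fibroblast markers was also higher in TM6 and PKO-1 than in rho0 and PKO-6. It was 6200 to 6390 TPM in TM6 and 5810 to 6000 in PKO-1, but 2830 to 2980 in rho0 and 2270 to 2610 in PKO-6. The largest terms in TM6 were *Vim* at 2300 TPM and *S100a4* at 2250 TPM. *S100a4* averaged 2640 TPM in PKO-1, 582 in rho0 and 730 in PKO-6. *Col1a1*, for example, averaged 182200, 98090, 61620 and 38370 normalized counts in TM6, PKO-1, rho0 and PKO-6, and *Col3a1* 4765, 7011, 475.9 and 329.2. Single markers did not all follow the sum. *Pdgfrb* had 6986 normalized counts in TM6, but 3001 in PKO-1, 2530 in rho0 and 1542 in PKO-6. *Pdgfra* had 3225 in PKO-1 but 341.8 in TM6 and 414.6 in PKO-6, *Dcn* had 25.3 in TM6 and 146.9 in PKO-6, and *Postn* was near 0 in all derived lines. The part of this wider difference in *Twist2*, *Prrx2* and *Tbx15* was not tested. No single list of markers of another cell type summed to more than 28.8 TPM in a library. That value belongs to the cardiac list, which summed to 23.2 to 28.8 TPM in PKO-6, 9.23 to 10.3 in PKO-1, 6.79 to 7.29 in TM6 and 0.98 to 1.21 in rho0, with *Tnnt2* at 762.2 normalized counts in PKO-6 and 46.3 in TM6. Its part in the values of the 10 factors was not tested.

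The genes most like *Prrx1* over the 12 libraries were *Asun* (r = 0.990433), *Flrt2* (0.988598) and *Fgf10* (0.988393), and those most like *Twist1* were *Mrc2* (0.989954), *Ergic1* (0.984794) and *Gtf2i* (0.984010). The r values rest on PKO-1 standing apart in each. *Fgf10*, the mesenchymal signal that limb outgrowth depends on, had 6361 normalized counts in PKO-1 against 1683 in TM6, 1652 in rho0 and 1553 in PKO-6.

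*Prrx1* was the only one of the 6 with more than 1 transcript listed, and its transcripts did not keep fixed shares. The transcript of 4 exons held 38.2% ± 1.38 of its estimated counts in TM6, 31.3% ± 1.74 in rho0, 45.3% ± 2.17 in PKO-1 and 32.0% ± 3.56 in PKO-6. Corresponding shares of the 5-exon transcript were 44.6% ± 1.75, 50.8% ± 1.56, 40.0% ± 1.83 and 48.3% ± 3.26. That of 3 exons held the rest, 14.7% ± 0.524 in PKO-1 and 17.2% to 19.7% elsewhere. In PKO-1 alone the mean share of the 4-exon transcript exceeded that of the 5-exon transcript. These shares were estimated by the authors' software from reads that transcripts largely share, and no test was run on them.

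**Figure D4:**
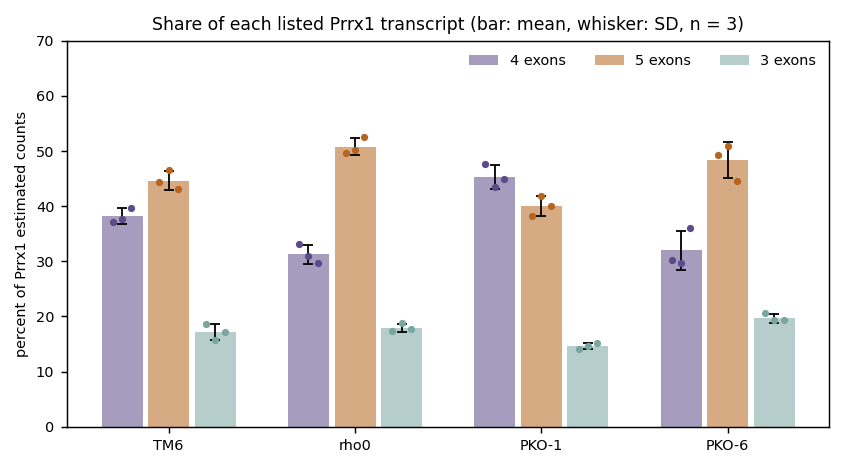
Share of each listed Prrx1 transcript in the estimated counts of the gene (vertical axis, percent, from 0), by line, with points for 3 libraries, bars for the mean and whiskers for the SD. The 4-exon transcript reaches 45.3% in PKO-1 and 31.3% in rho0.

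A wider list of 63 limb signals, receptors and transcription factors, of which 52 passed the filter, gives the setting of these 10 genes. At the same thresholds in edgeR's test against TM6, 6 of the 52 rose and 26 fell in rho0, 11 rose and 24 fell in PKO-1, and 6 rose and 30 fell in PKO-6. As shares of the 52, these are 11.5% and 50% in rho0, 21.2% and 46.2% in PKO-1 and 11.5% and 57.7% in PKO-6, beside 20.7% and 21.4%, 16.4% and 17.9%, and 21.9% and 19.4% of all tested genes. The median log2 fold changes were -0.55, -0.41 and -0.78, also with genes at 0 set to their bound, beside medians of 0.02, 0.00 and 0.01 over all tested genes. *Bmp2*, *Gdf5*, *Msx1*, *Msx2*, *Irx3* and *En1* passed the filter only through TM6, so their fall was fixed by the filter. They are counted in these shares and medians, which describe the list and are no test of it. Among the derived lines 22 rose and 9 fell in PKO-1 against PKO-6, 18 rose and 9 fell in PKO-1 against rho0, and 10 rose and 9 fell in PKO-6 against rho0. The shares were 42.3%, 34.6% and 19.2% higher and 17.3% lower in each, beside 11.5%, 15.1% and 13.3% higher and 17.6%, 17.6% and 8.16% lower over all tested genes. These shares of the 52 include genes with at most 3 counts in every library of both compared lines, which could hardly pass. They numbered 5 in PKO-1 against PKO-6, 3 in PKO-1 against rho0 and 3 in PKO-6 against rho0. *Shh*, *Fgf4*, *Sall3* and *Sall4* had 0 counts in all libraries, so the signal that HAND2 promotes in the limb bud was not detectable in TM6 either.

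Of the 6 signals tested, *Fgf10* rose in PKO-1 against TM6 (1.92, SE 0.0725), was not called in rho0 or PKO-6, was also higher than in PKO-6 (2.04, SE 0.0729). *Grem1*, a BMP antagonist that prolongs limb bud signalling, rose in all 3 derived lines, by 1.18 in rho0, 1.78 in PKO-1 and 2.25 in PKO-6. *Bmp4* fell in all 3, from 2599 normalized counts in TM6 to 708.3, 1282 and 649.4 in rho0, PKO-1 and PKO-6. *Wnt5a*, a signal for limb elongation, had 642.2 in TM6 and 807.3 in rho0 but fell to 199.2 in PKO-1 and 91.3 in PKO-6.

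Among 7 receptors, *Fgfr2*, a receptor for FGF10, fell in all 3 derived lines, from 1520 normalized counts in TM6 to 85.8 in PKO-1, 373.4 in rho0 and 452 in PKO-6. The WNT5A receptor *Ror2* fell in all 3 lines, by 1.78 in rho0, 2.07 in PKO-1 and 1.40 in PKO-6. *Bmpr1b*, which acts in cartilage condensation, rose in all 3 lines, by 1.79 in rho0, 1.45 in PKO-1 and 2.50 in PKO-6. In PKO-1 against PKO-6, *Fgfr2*, *Bmpr1b* and *Ptch1* were lower, with log2 differences of -2.39, -1.04 and -0.83.

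Of 26 other limb transcription factors, 2 rose and 14 fell in rho0, 6 rose and 13 fell in PKO-1, and 2 rose and 16 fell in PKO-6. The shares that rose were 7.69%, 23.1% and 7.69%, beside 20.7%, 16.4% and 21.9% of all tested genes. The shares that fell were 53.8%, 50% and 61.5%, beside 21.4%, 17.9% and 19.4% of all tested genes. They include *Msx1*, *Msx2*, *Irx3* and *En1*, which passed the filter only through TM6. *Alx4*, a homeodomain factor of the anterior limb bud, had 1064 normalized counts in TM6, 24.7 in rho0, 0 in PKO-1 and 1.26 in PKO-6, at least 976-fold lower in PKO-1. *Msx1* was at 66.5 in TM6 and 0 in all derived libraries, and *Sox9*, the regulator of cartilage formation, fell by 2.87 in rho0, 1.31 in PKO-1 and 0.90 in PKO-6. *Etv5*, a target of FGF signalling, rose by 1.51 in rho0, 1.41 in PKO-1 and 1.75 in PKO-6, and *Lhx9* was higher in PKO-1 than in PKO-6 by 1.58. *Lmx1b* and *Lhx2* went the other way, with 1.94 and 1.42 normalized counts in PKO-1 against 106 and 52.6 in PKO-6.

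The bHLH partners and inhibitors bear on the factors that pair on E-boxes. *Tcf3*, *Tcf4* and *Tcf12*, which encode the E-protein partners of HAND and TWIST factors, had 6803 to 12190 normalized counts on average in the 4 lines. None was called against TM6. Between derived lines, *Tcf12* was called in PKO-1 against rho0 (-0.64) and *Tcf4* in PKO-1 against PKO-6 (0.59). The inhibitors *Id2* and *Id1*, which bind E-proteins without binding DNA, differed more. *Id2* had 4014 in PKO-1 and 3438 in TM6 against 1004 in rho0 and 672 in PKO-6, and was higher in PKO-1 than in PKO-6 by 2.58 (SE 0.0831). *Id1* was higher in PKO-1 than in rho0 by 1.63 (SE 0.113). Against TM6, *Id3* was called lower in all 3 derived lines and *Id4* higher in PKO-1 only. Of the genes of the mesenchymal state, *Snai1* fell by 2.04 in rho0, 1.35 in PKO-1 and 1.78 in PKO-6. Its relative *Snai2* went the other way, rising by 0.79 in rho0 and 0.71 in PKO-6, and was not called in PKO-1. *Cdh11* was lower in PKO-6 than in rho0 by 0.80, while *Zeb2* rose in all 3 derived lines. *Zeb1* and *Cdh2* were called lower against TM6 in PKO-6 only.

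**Figure D5:**
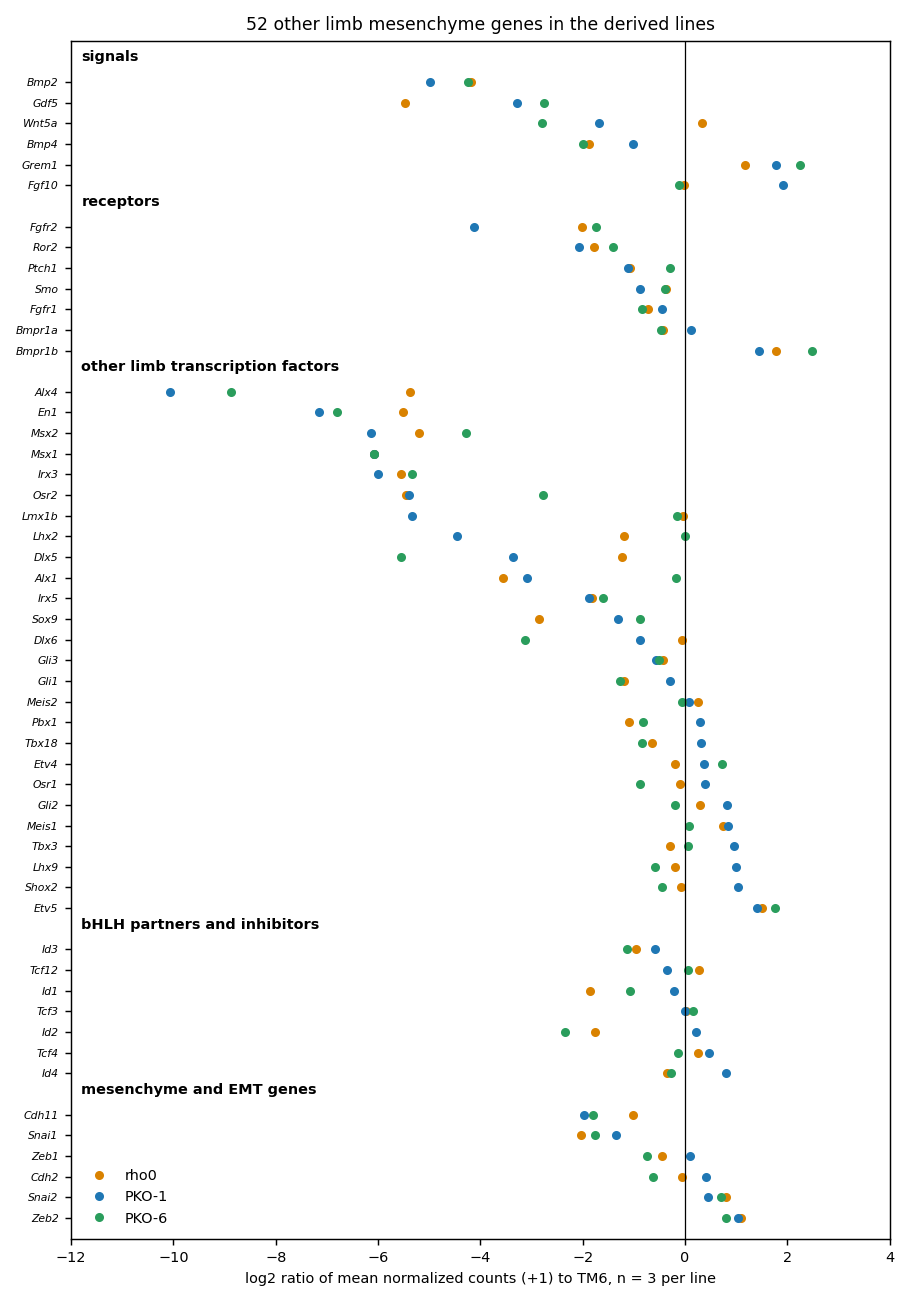
Log2 ratio of mean normalized counts plus 1 to TM6 (horizontal axis) for the 52 tested genes of the wider list, grouped by role, with 1 point per derived line (n = 3 libraries each). Alx4, En1, Msx1, Msx2 and Irx3 lie far to the left in all 3 lines, and Grem1, Bmpr1b and Etv5 to the right.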

How the data were processed

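RNA of 4 MEF lines, 3 cultures each, was sequenced by the authors as strand-specific libraries depleted of ribosomal RNA, prepared in technical duplicate and merged. The authors estimated counts with RSEM 1.2.25 and bowtie2 on RefSeq transcripts of mm10 (GRCm38); whether strand was used in counting is not given in the sources used here. The authors deposited expected counts per gene, without normalization, which were used for all tests, and expected counts and TPM per transcript, whose TPM were summed to genes here for levels per length. Each column was assigned to its sample by its title.

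Counts were rounded (12.5% had decimals). edgeR 4.0.16 in R 4.3.3 filtered with filterByExpr at a minimum count of 10, leaving 14026 of 24453 genes, scaled by TMM and fitted 4 groups by quasi-likelihood. SE is the log2 fold change over the square root of F. A gene with 0 counts in a line was set against a floor of 3 counts. In simulated data for PKO-1 against PKO-6, 77% of genes changed by a log2 of 1 and 94% of those changed by 2 were recovered over 14026 genes. RNA was compared between separate cultures of a clone, so p measures the spread between cultures.

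The 10 genes and both gene lists were chosen with earlier results of these data known. From the wider list, the rule names in each comparison up to 3 called genes per direction with the largest change and a mean of at least 100 normalized counts. Other genes of the wider list, such as *Bmp4*, *Msx1*, *Zeb2*, *Lmx1b*, *Lhx2*, *Id3* and *Snai2*, were named after their values were seen. So were the marker genes and the genes at 0. Not every gene that the rule admits is printed at every contrast. Alternatives were DESeq2 1.42.0's size factors and Wald test, no filter, a replicate block, removal of Rn45s, removal of chromosome medians, other thresholds, pooled clones, the compared groups alone and each library left out. Deviations from the line means were compared between same-numbered libraries: r was over 0.1 in 10 of 18 pairs, and in all 3 pairs only for TM6 and PKO-6 (0.273 to 0.407), 1 of 6 pairs of lines. Over the 18 pairs r ran from -0.53 to 0.407, so the deviations went in both directions. The titles state no shared culture or day behind a number. Figures used matplotlib 3.10.9.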

Additional observations from a re-analysis of the deposited data

Results flagged for a closer look

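Both knockout clones come from TM6 by the same route, and 6 of the 10 factors differed between them in a direct test, in which 11.5% of all tested genes were higher and 17.6% lower in PKO-1. In PKO-1 against PKO-6, the log2 difference was 0.646 for *Twist1*, 1.267 for *Twist2*, 0.894 for *Prrx1*, 1.628 for *Prrx2*, 0.904 for *Tbx5* and 0.922 for *Tbx15*. Adjusted p ran from 1.89e-09 to 1.68e-05 in edgeR's quasi-likelihood test. With 1 colony per clone, a difference between clones and one between culture histories cannot be told apart.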

How the results depend on the processing

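Counts of called genes among the 10 factors and the wider list stayed within 1.5 times of the reported ones with the size factors or the Wald test of DESeq2, no filter, without Rn45s, with chromosome medians removed, with an adjusted p under 0.05, with the compared groups alone and with any library left out. Beyond a log2 fold change of 1, the factors called numbered 3 in rho0, 2 in PKO-1 and 3 in PKO-6 against TM6 and 2 in PKO-1 against PKO-6, and the wider list's calls were 20 in PKO-1 against PKO-6, 15 in PKO-1 against rho0 and 10 in PKO-6 against rho0. Against TM6, the 2 in PKO-1 were *Hand2* and *Pitx1*, and rho0 and PKO-6 added *Prrx2*. *Hand2* chose the list, and *Hand2* and *Pitx1* passed the filter only through TM6. Their calls against TM6 were thus fixed in advance and are no measure of robustness. With both knockout clones pooled, 2 factors were called in rho0 and 2 in the pooled clones against TM6, again *Hand2* and *Pitx1*. *Twist2*, lower in PKO-6 alone, had 0.134 in the pooled clones, an average over PKO-1 and PKO-6, which lie on either side of TM6. The replicate block left 6 factors called in PKO-1 against PKO-6, and 5 factors and 36 genes of the wider list called in PKO-6 against TM6, the only lines whose same-numbered libraries all deviated together. It changed no other count of calls. Of 774 values of single factors under these alternatives, 747 stayed on their side of the threshold or uncalled, 25 no longer passed and 1 newly passed. The sign changed in 15, of which 14 were values not called in either fit and 1 was *Twist2* above. Depth limits statements on *Hand1* and *Tbx4*, with at most 26 counts per library.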
